A study of Capra hircus with 3 samples.

Results

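The 7 genes described here, NR2F1, NR2F2, TCF21, OSR1, SHOX2, LHX9 and EMX2, encode transcription factors of the stroma and the ridge from which the gonad forms. They were chosen by symbol from a list of such factors, and all 7 were found among the 27271 features of the count tables of a goat (Capra hircus) fetal testis study. The study ran droplet-based single-cell RNA sequencing on dissociated testes labelled as male and as E85, E105 and E125, that is by embryonic day. Collagenase, hyaluronidase, trypsin and DNase were used for the dissociation. Each stage is 1 library, and the labels give no genotype, treatment, breed or number of animals, so stage, animal and library cannot be told apart. The series title concerns germ and somatic cells around mitotic quiescence. Here it is asked which somatic and germ cells of each library hold which factor. No difference below has a replicate check, no p-value was computed, and the exact intervals printed cover counting error only.

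NR2F1 and NR2F2 are orphan nuclear receptors, and NR2F2 marks interstitial mesenchyme and vascular walls in the mouse gonad. TCF21 is a basic helix-loop-helix factor of mesenchymal progenitors, and OSR1 is a zinc finger factor of the intermediate mesoderm. SHOX2, LHX9 and EMX2 are homeobox factors, of which LHX9 and EMX2 are needed in the mouse for the gonad to form at all.

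Cells were assigned to a class when they held at least 3 of its marker genes and at least 1 more than of any other class; none of the 7 factors served as a marker. Stromal cells numbered 2283 in the E85 library, 3542 in the E105 library and 4268 in the library labelled E125, with a median of 2087, 2258.5 and 3152.5 unique molecular identifiers (UMIs) per cell in the same order. They had 11 of 11 stromal markers above 0 in every library, but the same markers chose these cells, so this is no separate check. Mural cells, the contractile cells of vessel walls, numbered 51, 51 and 120, and Sertoli cells, the supporting cells of the testis, numbered 2504 in E85 and 1902 in E105. The library labelled E125 went against its label. The Sertoli hormone gene AMH stood at 1401, 3819 and 31.6 counts per 1000000 UMIs (CPM) in E85, E105 and E125. The oocyte gene ZP3 stood at 1.14, 2.51 and 2109 CPM. In place of Sertoli cells (9 cells) that library held 510 cells with pregranulosa markers, the supporting cells of the ovary. It is therefore described as a library of its own, and E125 stands below for the library labelled so, not for a checked stage. The libraries held 43682039, 39033107 and 48142092 UMIs in the cells used, and pairs of libraries shared 9 to 14 cell barcodes.

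Of the nuclear receptors, NR2F2 was widespread in the stroma of every library. Its stromal level was 657 CPM in E85 (95% interval 636 to 678), 594 CPM in E105 (578 to 609.5) and 697 CPM in E125 (684 to 709.9). With every cell thinned to 1000 UMIs, it was found in 48.8%, 46.3% and 49.4% of stromal cells. The stromal level thus spanned a narrow range over the libraries. Without thinning the shares were 74.7%, 74.3% and 85.2%. Lymphoid cells, which served as a measure of free RNA, had 1.61 CPM in E85 and 1.96 CPM in E105, with 0 of 97 and 0 of 161 thinned cells holding a UMI. Their median depths were 5299 and 5671 UMIs. The class rule can leave out lymphoid cells that carry RNA of another class, so this measure may be too low. Of the cells in lymphoid clusters, 336 in E85 and 451 in E105 met no class, and 32 and 39 counted as stromal. Over all libraries, the lymphoid clusters led by LTB and by VPREB1 had 46.2 and 30.4 CPM of NR2F2. Macrophages had 45.6, 0 and 38.2 CPM at 2840.5, 2655.5 and 3581 UMIs per cell. That was above the gated lymphoid cells in E85 and still far below the stroma in each library.

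NR2F2 was also found outside the stroma. Mural cells had 675, 757 and 960.1 CPM in E85, E105 and E125, as high as the stroma or higher. The ratio of stroma to mural cells was 0.97 (0.79 to 1.22) in E85, 0.78 (0.67 to 0.92) in E105 and 0.73 (0.68 to 0.78) in E125. Endothelial cells had 305, 341 and 293 CPM. The stroma was 2.15-fold (1.96 to 2.37), 1.74-fold (1.59 to 1.91) and 2.38-fold (2.25 to 2.51) higher than the endothelium. Within the endothelium of E125, a cluster of 65 cells led by CCL21, FLT4 and PROX1, known as lymphatic genes, had 789 CPM of NR2F2 (712 to 873).

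NR2F1 was scarce, with 30, 51 and 144 UMIs in all cells of E85, E105 and E125. Stromal cells held 12, 41 and 79 of these, which is 2.11, 4.36 and 4.87 CPM. Macrophages held 1 UMI in E85 (3.04 CPM), 1 in E105 (2.24 CPM, 0.057 to 12.5) and 0 in E125, which allows up to 10.4 CPM. The macrophages thus do not set the stromal level apart from free RNA in any library. Lymphoid cells held 0 UMIs in E85 and in E105, which allows up to 4.84 and 2.94 CPM. In E105 that limit lay below the stromal level (3.13 to 5.91), although the exact upper limit of 3.62 CPM did not clear its interval. Germ cells of E85 held 11, a level of 2.66 CPM, and the stroma had 0.79 times that (0.32 to 1.98). Supporting cells held 3 UMIs in E85, 3 in E105 and 4 in E125. The stroma-to-supporting ratio was 19.1 (5.15 to 105.4) in E85, 29.3 (9.33 to 148) in E105 and 11.8 (4.42 to 44.2) in E125. The highest of the 14 clusters of E125 with at least 50 cells was that same CCL21-led endothelium, at 33.1 CPM (18.9 to 53.8). The largest cluster of that library, 3167 cells led by SULF1 and also by MGP, had 6.22 CPM (4.75 to 8.01). The marker rule left that cluster unnamed, but it held 2429 of the 4268 stromal cells, and it is called stromal here for that reason.

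TCF21 was high in the stroma and low in endothelial and supporting cells. Stromal cells had 760.2 CPM in E85 (738 to 783), 1099 CPM in E105 (1077 to 1119.9) and 839 CPM in E125 (825 to 853). At 1000 UMIs per cell it was found in 50.8%, 63.4% and 51.6% of stromal cells. Endothelial cells had 2.56, 8.04 and 40.6 CPM, which did not exceed the macrophages of the same libraries (24.3, 6.73 and 55.6 CPM) beyond counting error. The 13.2 CPM of pregranulosa cells in E125 lay below those macrophages as well, so it is not read as expression.

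In mural cells TCF21 stood at 722, 376 and 180.4 CPM in E85, E105 and E125. The stroma had 1.05 times the mural level in E85 (0.86 to 1.31), 2.92 times in E105 (2.34 to 3.70) and 4.65 times in E125 (4.00 to 5.44). The E105 value depended on how mural cells were chosen. In a cluster of mural cells, built without the 7 factors, TCF21 had 791, 681 and 174 CPM over 80, 81 and 141 cells. By both choices E125 was the lowest, whereas the size of the difference between E105 and E85 depended on the choice.

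OSR1 was close to the limit of detection. It had 7, 38 and 5 UMIs in all cells of E85, E105 and E125, of which 5, 32 and 4 were in stromal cells. The stromal level was 0.88 CPM in E85 (0.29 to 2.05), 3.40 CPM in E105 (2.33 to 4.8) and 0.25 CPM in E125 (0.067 to 0.63). Lymphoid cells held 0 UMIs, which allows up to 4.84 CPM in E85 and 2.94 CPM in E105. Sertoli cells held 0 UMIs in E85, which allows up to 0.11 CPM, and 1 in E105. Pregranulosa cells held 0, which allows up to 0.31 CPM. The E105 stroma was 68.5-fold above Sertoli cells on that 1 UMI, with an interval of 11.4 to 2789. Its paralogue OSR2, another odd-skipped factor, was easier to count, with 135, 228 and 195 UMIs in the stroma.

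SHOX2 was abundant in the stroma of E85 and E105 and scarce in that of E125. Stromal cells had 597 CPM in E85 (577 to 617), 624 CPM in E105 (608 to 639.8) and 6.28 CPM in E125 (5.12 to 7.63). At 1000 UMIs per cell it was found in 46.0%, 45.8% and 0.42% of stromal cells. The stroma of E125 thus stood apart from that of the other libraries. Low as it was, the E125 stromal level was above that of the 679 endothelial cells of the library, which held 1 UMI, or 0.21 CPM (0.0052 to 1.14). Mural cells had 246, 241 and 10.6 CPM. The stroma-to-mural ratio was 2.43 (1.72 to 3.56) in E85 and 2.59 (1.96 to 3.49) in E105. In E125 it was 0.60 (0.31 to 1.28).

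What SHOX2 the E125 library held lay mostly in oocytes. The cluster of 124 cells led by ZP3 and FIGLA, genes of the oocyte coat and of oocyte transcription, held 419 of the 554 SHOX2 UMIs, or 75.6%. It had 40.6 CPM (36.8 to 44.7) against 0.93 CPM (0.43 to 1.77) in the SULF1-led stromal cluster and 16.97 CPM (13.6 to 20.9) in the stromal cluster led by CHODL. Of the 102 SHOX2 UMIs in stromal cells of E125, 87 were in the 1365 stromal cells of that CHODL-led cluster. The stromal clusters of this library, chosen after their values were seen, thus differed in SHOX2. Male germ cells held SHOX2 too, at 79.0 CPM in E85 (70.7 to 88.0) and 64.5 CPM in E105 (52.3 to 78.7), where Sertoli cells had 5.12 and 3.62 CPM. In thinned germ cells it was found in 10.0% and 9.86%, beside 0 of 97 lymphoid cells in E85 and 1 of 161 in E105, and 5 of 100 and 0 of 134 macrophages. The lymphoid clusters led by LTB and by VPREB1 had 33.9 and 30.4 CPM of SHOX2 over all libraries, nearer to the germ cells but below them. Germ cells were deep, with medians of 18805.5 and 20231 UMIs.

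LHX9 was far higher in the stroma than in Sertoli cells in E85 and E105. Its stromal level was 70.1 CPM in E85 (63.3 to 77.3), 112 CPM in E105 (105.3 to 119) and 12.5 CPM in E125 (10.8 to 14.4). At 1000 UMIs per cell 6.79%, 11.6% and 1.27% of stromal cells held a UMI of it. Sertoli cells had 10 UMIs in E85 and 11 in E105, or 0.37 and 0.55 CPM, and no thinned lymphoid cell held any. The stroma was 190.3-fold above Sertoli cells in E85 (102 to 399.9) and 205-fold in E105 (114 to 412). In mural cells LHX9 rested on 5, 7 and 9 UMIs, at 38.4, 33.8 and 9.50 CPM. The stroma-to-mural ratio was 1.83 (0.78 to 5.65) in E85, 3.32 (1.60 to 8.27) in E105 and 1.32 (0.68 to 2.92) in E125. It was thus beyond counting error in E105 only. Male germ cells had 7.01 CPM of LHX9 in E85 and 13.3 CPM in E105, with stroma-to-germ ratios of 10.0 (6.85 to 15.1) and 8.42 (5.43 to 13.8).

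In E125 LHX9 was highest outside the stroma. A cluster of 168 cells led by NMB, IRX5 and SMOC2, which met the marker rule for pregranulosa cells, had 83.9 CPM (73.6 to 95.3). It held 237 of the 492 LHX9 UMIs of the library. The main pregranulosa cluster, 615 cells led by FST, KCNK12 and HSD17B1, had 0.79 CPM (0.29 to 1.73). Cells that met the same cell type rule thus differed in LHX9 by far more than counting error. The surface cluster of 122 cells led by KRT7, a keratin of covering epithelia, had 21.2 CPM (14.7 to 29.6). Its name comes from the marker rule for clusters. Of its cells, 16 met the class rule for surface cells, 25 that for pregranulosa cells and 73 met no class.

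EMX2 was found in stromal, mural and germ cells alike. Stromal cells had 53.2 CPM in E85 (47.4 to 59.5), 69.1 CPM in E105 (63.9 to 74.6) and 28.3 CPM in E125 (25.8 to 31.1). Mural cells had 61.4, 53.0 and 55.9 CPM, on 8, 11 and 53 UMIs. Male germ cells had 67.4 CPM in E85 (59.7 to 75.8) and 121 CPM in E105 (104 to 139.9). The germ cells were therefore above the stroma in both libraries, with stroma-to-germ ratios of 0.79 (0.67 to 0.93) and 0.57 (0.48 to 0.68). In thinned cells EMX2 was found in 8.10% and 8.45% of germ cells and in 0 of 97 and 0 of 161 lymphoid cells. Of all EMX2 UMIs in the E85 library, the germ cluster of 262 cells held 45.6%.

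In the E125 library EMX2 was highest in the KRT7-led cluster that the marker rule named surface. The KRT7-led surface cluster had 305 CPM (279 to 334), the NMB-led cluster 211 CPM (194 to 229) and the mural cluster 91.6 CPM (71.1 to 116). The FST-led pregranulosa cluster had 18.5 CPM (15.6 to 21.8), and the stromal clusters had 26.9 CPM (23.7 to 30.3; SULF1-led), 26.03 CPM (21.8 to 30.8; CHODL-led) and 20.96 CPM (15.04 to 28.4; 299 cells led by CKAP2 and other division genes). The oocyte cluster had 53.1 CPM (48.7 to 57.7). In E85 a cluster of 71 cells led by HEPACAM, CLDN1 and PCSK1, with the keratin KRT8 among its leading genes, was highest for EMX2, at 153 CPM (116 to 198). It stayed unnamed and held 0 UMIs of SHOX2 and LHX9.

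**Figure D1:**
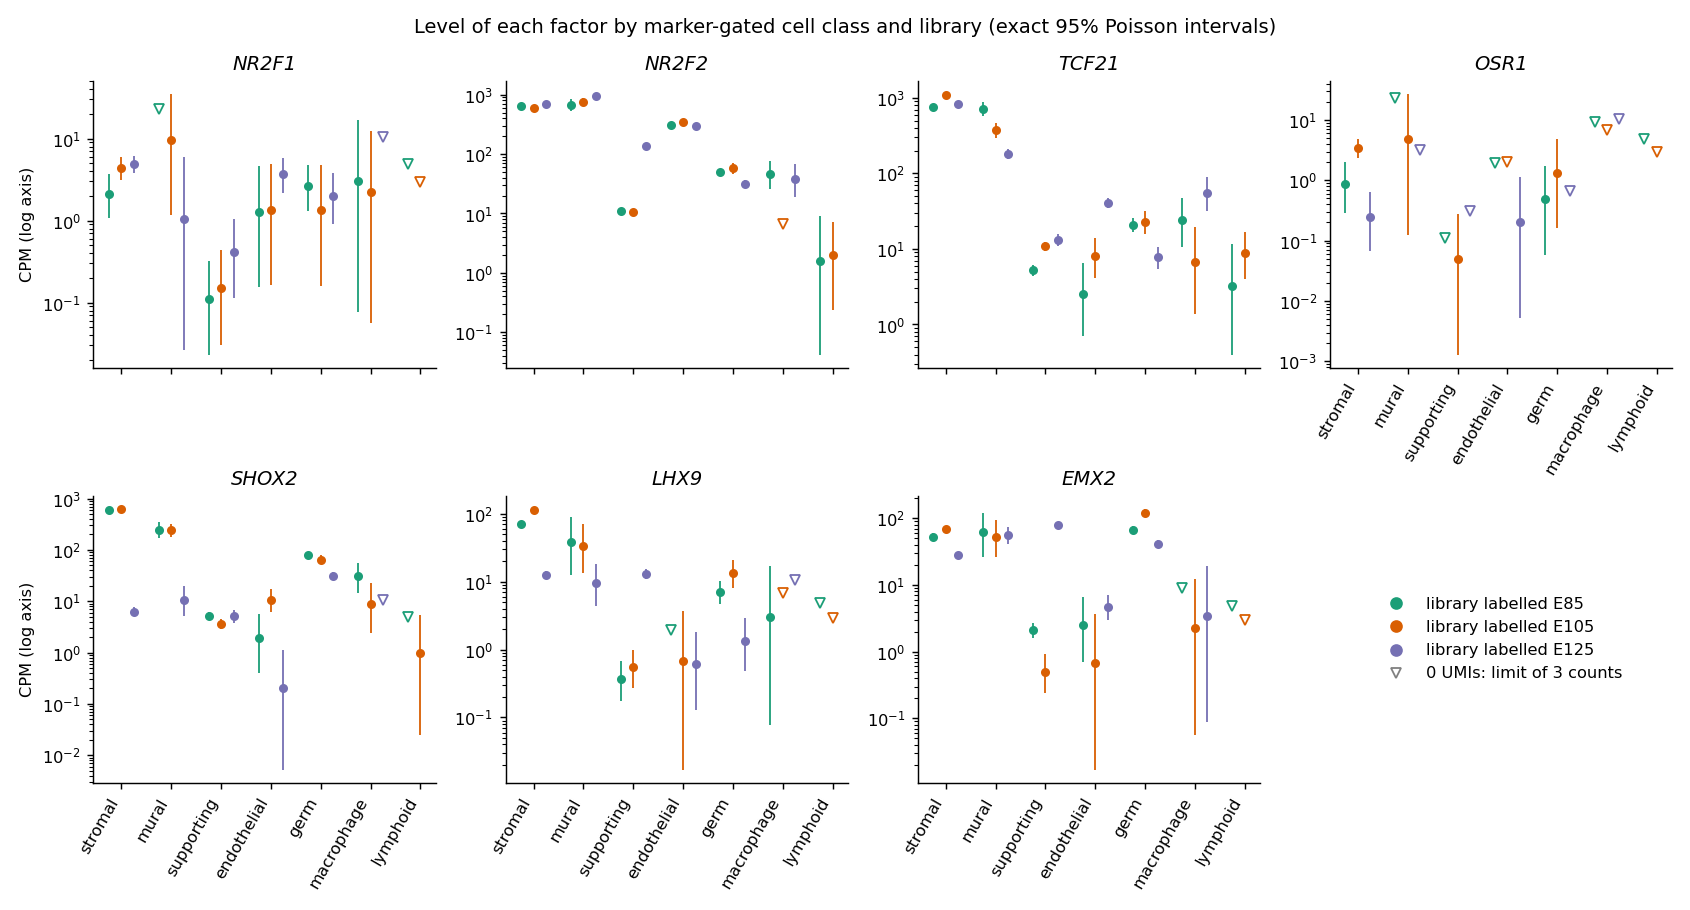
Level of each factor in CPM (log axis) by marker-gated cell class and library, as points with exact 95% Poisson intervals; open triangles mark 0 UMIs at the limit of 3 counts, supporting cells are Sertoli cells in E85 and E105 and pregranulosa cells in E125, and the germ-gated cells of E125 are 35 cells of the oocyte cluster. SHOX2 stands at 597 CPM in the stroma of E85, 624 CPM in that of E105 and 6.28 CPM in that of E125, while NR2F2 lies between 594 and 697 CPM.

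Set against the supporting cells of the same library, the factors were stromal in E85 and E105 and divided in E125. Of the 5 factors with at least 20 UMIs over both classes in E85, 5 were at least 2-fold higher in stroma than in Sertoli cells, where 34.9% of 9497 symbols were. In E105 this held for 7 of 7, where 35.6% of 9588 symbols passed. In E125 it held for 3 of the 6 measured against pregranulosa cells, where 18.4% of 10134 symbols passed. Some factors reached 20 UMIs only through the stroma. In E105 the Sertoli UMIs were 1 for OSR1, 3 for NR2F1, 10 for EMX2 and 11 for LHX9. Sertoli cells of E85 held 10 UMIs of LHX9, and pregranulosa cells of E125 held 4 of NR2F1. For these factors the filter and the outcome are not independent, so the counts are a description. NR2F2 was 59.7-fold (53.0 to 67.3), 57.0-fold (49.6 to 65.7) and 5.19-fold (4.90 to 5.50) higher in the stroma of E85, E105 and E125. NR2F2 stood at 134 CPM in pregranulosa cells of E125, and at 11.01 and 10.4 CPM in Sertoli cells of E85 and E105. TCF21 was 145-fold (123 to 173), 101-fold (88.4 to 116) and 63.4-fold (53.3 to 76.0) higher. Its levels in supporting cells were not told apart from free RNA, so these folds are set against a background level. In E85, 42 Sertoli-gated cells of a cluster led by OTOS held 57.0% of the Sertoli UMIs of TCF21 and 52.5% of those of SHOX2. By named clusters TCF21 had 861 CPM in stroma and 9.20 CPM in Sertoli cells of E85. In E105 it had 1213 and 22.6 CPM, and both differences were smaller than by gates. SHOX2 was 117-fold (98.4 to 139) and 172-fold (137 to 219.9) higher in E85 and E105, and 1.24-fold (0.87 to 1.78) in E125.

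LHX9 and EMX2 were not higher in stroma than in supporting cells in E125. LHX9 had 12.5 CPM in stroma and 12.9 CPM in pregranulosa cells, a ratio of 0.97 (0.77 to 1.22). EMX2 had 28.3 CPM in stroma and 79.0 CPM in pregranulosa cells, a ratio of 0.36 (0.32 to 0.40), where the ratio was 25.4 (19.1 to 34.3) in E85 and 139 (75.2 to 291.5) in E105. These pregranulosa values came from few cells. The 53 gated cells of the NMB-led cluster held 88.8% of the LHX9 UMIs and 38.7% of the EMX2 UMIs. The 25 gated cells of the surface cluster held 28.5% of the EMX2 UMIs, and 10 cells of the oocyte cluster held 95.9% of the SHOX2 UMIs. With the gated cells of the FST-led cluster alone as supporting cells, a choice made after the values were seen, the log2 ratio of EMX2 was 0.36 in place of -1.48, that of LHX9 4.88 in place of -0.05 and that of SHOX2 3.89 in place of 0.30. The 5 factors past 2-fold were then NR2F1, NR2F2, TCF21, SHOX2 and LHX9. The share of all symbols for this choice is not reported here, so nothing is read from that count.

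**Figure D2:**
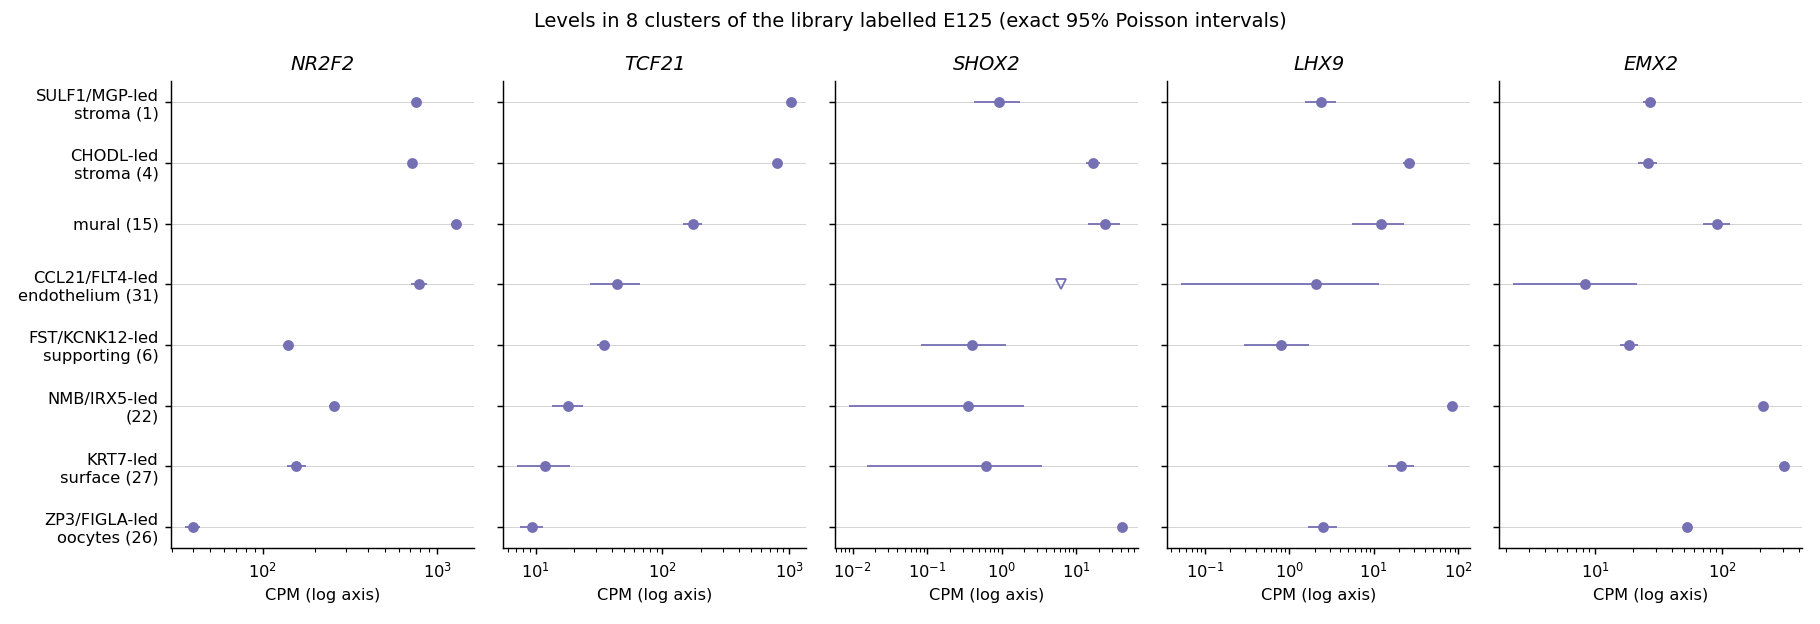
Levels of 5 factors in CPM (log axis) in 8 clusters of the library labelled E125, with exact 95% Poisson intervals; the cluster number is in brackets and the open triangle marks 0 UMIs at the limit of 3 counts. LHX9 is highest in the NMB/IRX5-led cluster (83.9 CPM), EMX2 in the KRT7-led surface cluster (305 CPM) and SHOX2 in the oocyte cluster (40.6 CPM).

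Between E105 and E85, the stroma held more TCF21, LHX9 and EMX2 in E105 with slightly less NR2F2 and nearly the same SHOX2. TCF21 was 1.44-fold higher in E105 than in E85 (1.39 to 1.498), LHX9 1.60-fold (1.42 to 1.80) and EMX2 1.30-fold (1.13 to 1.49). NR2F2 stood at 0.90 of its E85 level (0.87 to 0.94) and SHOX2 at 1.04 (1.00 to 1.09). With median-of-ratios scaling the direction of SHOX2 turned, with a log2 ratio of -0.01 in place of 0.06. Of the 7 factors 2 passed 2-fold, where 7.61% of 8984 symbols did, and both are scarce: NR2F1 at 2.07-fold on 41 UMIs in E105 and 12 in E85, and OSR1 at 3.87-fold on 32 and 5 UMIs. NR2F1 fell short of 2-fold by several other ways of choosing or scaling the cells.

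The LHX9 ratio of E105 over E85 had different values in the stromal clusters, a difference that was not tested. In the stromal cells of a cluster led by CCN3, a secreted matricellular protein, LHX9 had 85.2 CPM in E105 and 80.2 CPM in E85, a ratio of 1.06 (0.89 to 1.26). EMX2 had 55.8 CPM in E105 and 58.3 CPM in E85, a ratio of 0.96 (0.78 to 1.18). In the cluster led by TAC1 and NTRK2, a neuropeptide precursor and a neurotrophin receptor, LHX9 had 166 CPM in E105 and 97.8 CPM in E85, a ratio of 1.70 (1.26 to 2.36). EMX2 had 93.1 CPM in E105 and 67.4 CPM in E85 there, a ratio of 1.38 (0.96 to 2.07). The CCN3-led cluster held 1349 of the stromal cells of E105 and 1634 of those of E85, and the TAC1-led cluster held 1644 of E105 and 212 of E85. Of the 1876 cells of the TAC1-led cluster 1659 came from E105, and whether the cluster is a feature of that library was not tested. TCF21 was higher in E105 in each of the clusters, by 1.37-fold (1.31 to 1.44) and 1.30-fold (1.19 to 1.44). In a smaller stromal cluster led by replication genes such as MCM4, TCF21 was 1.44-fold higher (1.22 to 1.70), LHX9 stood at 1.21 (0.73 to 2.07) and EMX2 at 1.14 (0.60 to 2.21). Summed Sertoli markers stood at 529 CPM in E105 stroma and 334 CPM in E85 stroma, and their part in these differences was not tested; TCF21, LHX9 and EMX2 were at 10.9, 0.55 and 0.50 CPM in the Sertoli cells of E105.

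Outside the stroma, TCF21 was lower in E105 in mural cells and EMX2 was higher in germ cells. Mural cells had 376 CPM of TCF21 in E105 and 722 CPM in E85, a ratio of 0.52 (0.38 to 0.71). Summed Sertoli markers in these mural cells stood at 617 CPM in E105 and 61.4 CPM in E85, and summed stromal markers at 2980.4 and 2403 CPM; their part in the ratio was not tested. Of the 3 factors measured in mural cells 0 passed 2-fold, where 10.0% of 1797 symbols did. By the mural cluster the same log2 ratio was -0.22 in place of -0.94. Sertoli cells had 10.9 CPM of TCF21 in E105 and 5.23 CPM in E85, with 8.83 CPM and 3.23 CPM in lymphoid cells, so Sertoli TCF21 is not told apart from free RNA. Germ cells had 1.80 times as much EMX2 in E105 as in E85 (1.48 to 2.17) and 1.90 times as much LHX9 (1.02 to 3.47), which rests on 20 UMIs in E105 and 29 in E85. By clusters the log2 ratio of EMX2 in Sertoli cells was -0.07 in place of -2.02. EMX2 in the Sertoli gate rested on 10 UMIs in E105 and 57 in E85. Of these, 4 and 25 came from 5 and 14 cells that clustered with germ cells.

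**Figure D3:**
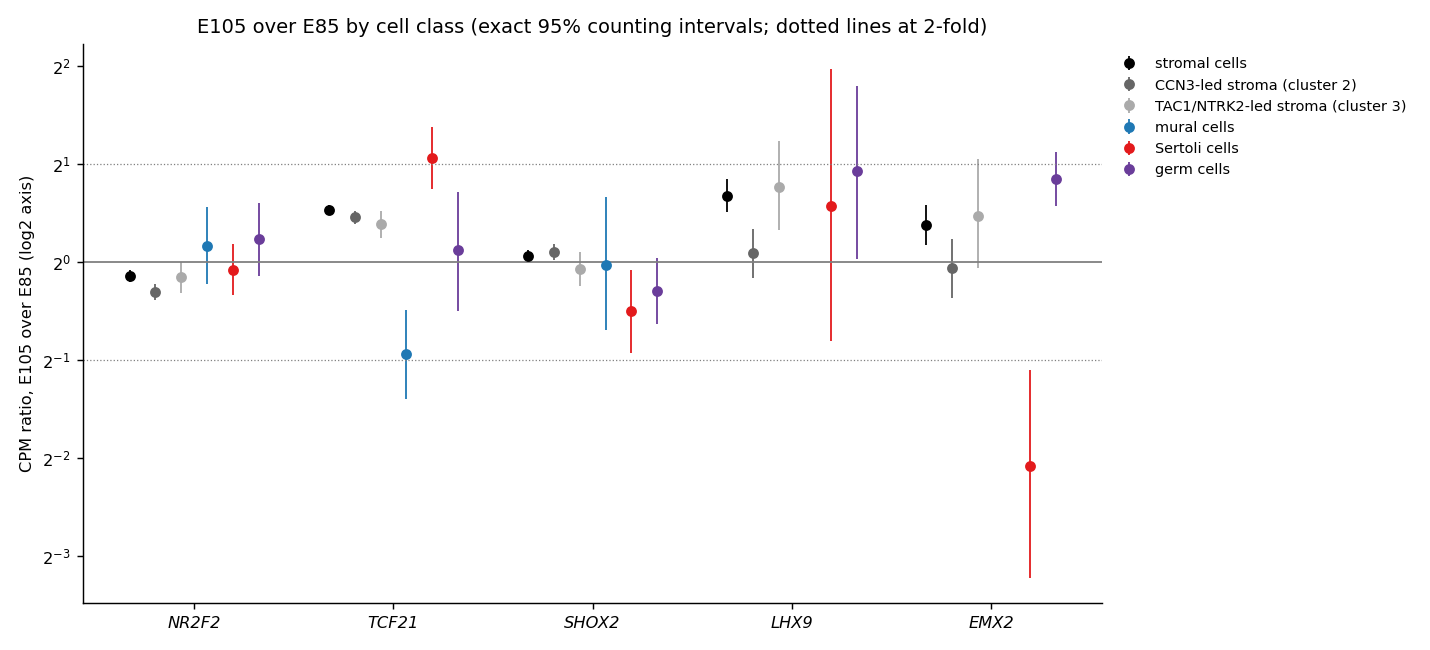
Ratio of CPM in E105 over E85 (log2 axis) for 5 factors in stromal cells, in 2 stromal clusters and in mural, Sertoli and germ cells, with exact 95% counting intervals; dotted lines mark 2-fold, and points with fewer than 20 UMIs over both libraries are left out. TCF21 is above 1 in all 3 stromal sets (1.44, 1.37 and 1.30), whereas LHX9 is at 1.06 in the CCN3-led cluster and at 1.70 in the TAC1/NTRK2-led one.

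Between E125 and E105, 4 of the 7 factors differed at least 2-fold in the stroma, where 32.3% of 10044 symbols did. All 4 were lower in E125, as were 14.4% of all symbols at the same fold. SHOX2 had 6.28 CPM in E125 and 624 CPM in E105, which is 99.2-fold lower in E125 (81.6 to 122). With cells assigned by named clusters, which leaves out the SULF1-led cluster, SHOX2 had 13.96 CPM (11.4 to 16.98) in E125 and 685 CPM (667 to 703) in E105, a smaller difference. LHX9 was 8.95-fold lower (7.70 to 10.5), EMX2 2.44-fold lower (2.16 to 2.75), and OSR1 had 4 UMIs in E125 and 32 in E105. NR2F2 (1.17 times the E105 level), TCF21 (0.76 times) and NR2F1 (1.12 times, 0.76 to 1.67) stayed within 2-fold. Mural cells showed the same order for SHOX2, with 10.6 CPM in E125 and 241 CPM in E105. Their TCF21 was 0.48 times the E105 level (0.36 to 0.64), and their EMX2 1.05 times (0.54 to 2.24). As the library labelled E125 holds ovarian supporting cells and oocytes, stage cannot be told apart from what the library holds.

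Within single stromal cells the factors combined much as their separate shares would give. At 1000 UMIs per cell, NR2F2 and TCF21 were found together in 26.5% of cells in E85 (24.7 to 28.4), 30.0% in E105 (28.5 to 31.5) and 25.2% in E125 (23.9 to 26.5). The products of their shares were 24.8%, 29.4% and 25.5%. TCF21 and SHOX2 were together in 24.0% of cells in E85 and 29.2% in E105, with products of 23.4% and 29.1%. The pair farthest above its product among those with at least 50 cells was TCF21 with LHX9 in E85, at 1.22 times (4.20% of cells, 3.42 to 5.11, beside a product of 3.45%). In E105 the same pair was at 1.01 times. LHX9 and EMX2 were together in 10 cells of E85 and 33 of E105, at 1.03 and 1.13 times the product. The lowest of the pairs with at least 50 cells was SHOX2 with LHX9 in E85, at 0.90 times its product.

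All 3 of NR2F2, TCF21 and SHOX2 were found in 13.1% of stromal cells in E85, 14.1% in E105 and 0.070% in E125. None of the 3 was found in 14.3%, 11.6% and 24.0% of cells. At this depth a cell without a UMI may still express the gene. With the stromal cells of at least 2000 UMIs thinned to 2000 (1019, 1242 and 688 shallower cells left out), NR2F2 was found in 67.7%, 68.0% and 71.4% and TCF21 in 69.5%, 79.3% and 71.8%.

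**Figure D4:**
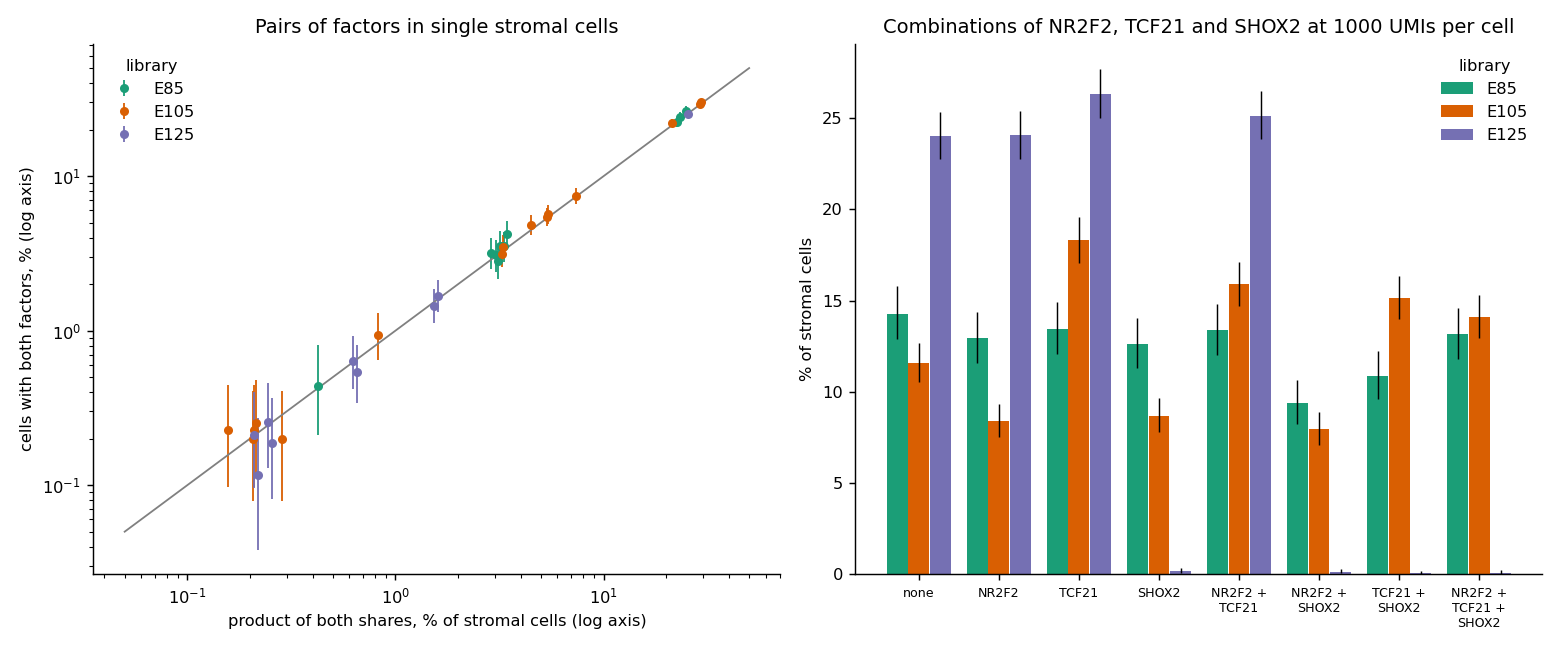
Left, share of stromal cells with both of 2 factors against the product of the 2 shares (both log axes, in %, pairs with at least 5 cells, exact 95% Clopper-Pearson intervals, the line marks equality); right, share of stromal cells with each combination of NR2F2, TCF21 and SHOX2 at 1000 UMIs per cell. Pairs with at least 50 cells lie between 0.90 and 1.22 times the product, and the combinations with SHOX2 are at 0.16% or below in E125.

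The stroma was also divided by markers of subsets that had been seen in these libraries before. In E105, stromal cells with TAC1 or NTRK2 (1356 cells) had 139 CPM of LHX9 and cells without them (2186 cells) had 94.6 CPM, a ratio of 1.47 (1.30 to 1.66). EMX2 had 88.2 CPM with and 57.0 CPM without, a ratio of 1.55 (1.32 to 1.81). SHOX2 went the other way, at 560.5 CPM with and 664 CPM without, a ratio of 0.84 (0.80 to 0.89). LHX9 and SHOX2 thus leaned to opposite sides of this division. In E85 LHX9 (1.32, 1.04 to 1.67) and SHOX2 (0.87, 0.79 to 0.95) leaned the same ways and EMX2 did not differ beyond counting error (1.00, 0.74 to 1.34). Cells with CCN3 had 1.13 times as much SHOX2 as cells without it in both E85 (1.05 to 1.21) and E105 (1.07 to 1.20). In E105 they had 0.76 times as much LHX9 (0.66 to 0.88).

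In E125, cells with CCN3 had 2.04 times as much SHOX2 (1.20 to 3.33) and 0.41 times as much LHX9 (0.19 to 0.77) as cells without it, and with TAC1 or NTRK2 LHX9 was at 0.93 (0.65 to 1.30). That library was also divided by CHODL and by MGP or COL12A1. Cells with CHODL (759 cells) had 27.5 CPM of LHX9 and cells without it (3509 cells) 8.24 CPM, a ratio of 3.33 (2.505 to 4.43). Cells with MGP, a matrix protein that inhibits calcification, or COL12A1, a fibril-associated collagen, numbered 3540 and had 7.79 CPM of LHX9. The 728 cells without them had 38.6 CPM, a ratio of 0.20 (0.15 to 0.27). Of the 203 LHX9 UMIs in stromal cells of E125, 34 came from 20 cells that clustered with the NMB-led pregranulosa cells, and their part in these ratios was not tested. TCF21 leaned the other way, with 886 CPM in cells with MGP or COL12A1 and 582 CPM in cells without (1.52, 1.44 to 1.61). NR2F2 differed little there (0.95, 0.91 to 1.00). SHOX2 did not differ beyond counting error with CHODL (1.26, 0.78 to 1.98) or with MGP or COL12A1 (0.70, 0.43 to 1.19). Cells with the marker were deeper, with medians of 3646 UMIs with CHODL and 3090.0 without it, and of 3268 UMIs with MGP or COL12A1 and 2713.5 without them.

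**Figure D5:**
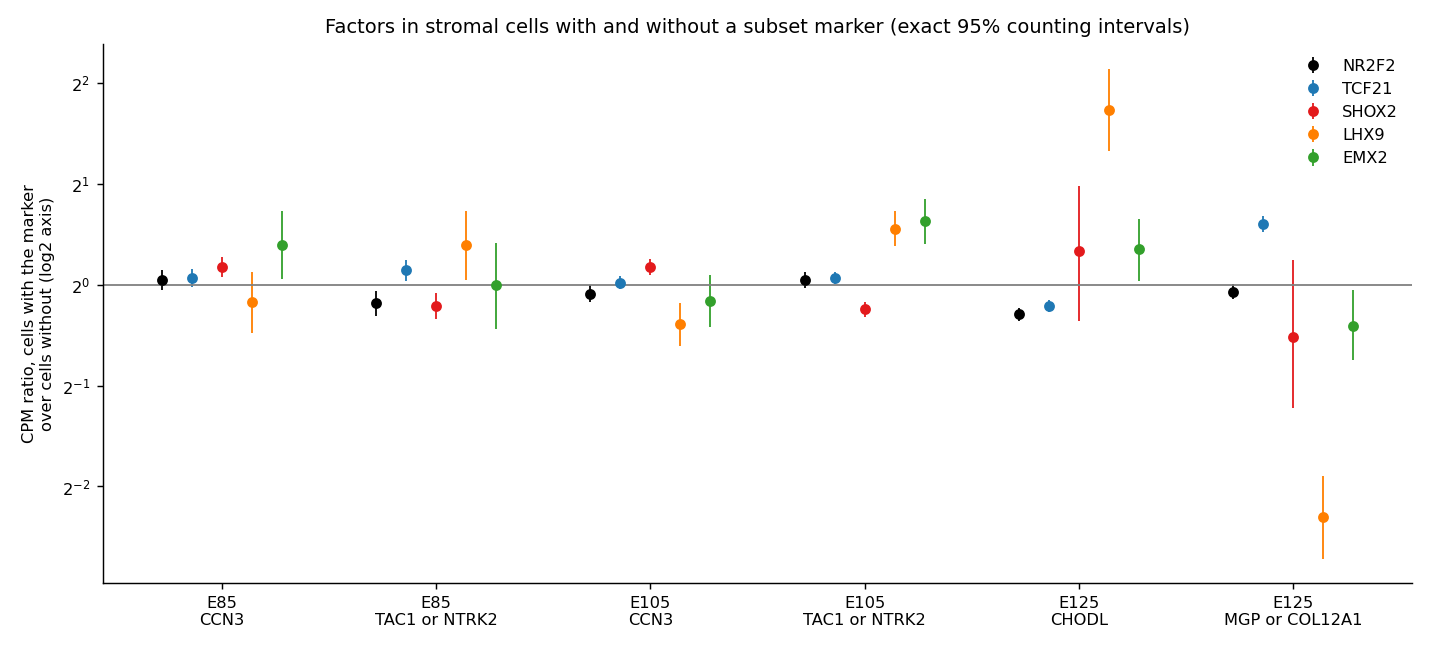
Ratio of CPM in stromal cells with a subset marker over those without it (log2 axis) for 5 factors, with exact 95% counting intervals, in the E85, E105 and E125 libraries. LHX9 lies farthest from 1, at 3.33 with CHODL and 0.20 with MGP or COL12A1 in E125.

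Over the 19 sums of a cell class in a library with at least 50 cells, each factor with at least 100 UMIs was set beside 7194 other symbols by Pearson correlation of log2(CPM + 1). The sums share libraries and differ in depth, so these values are a description; OSR1 had too few UMIs. TCF21 was most like COL1A2 (0.96), DCN (0.96) and AGTR1 (0.96). COL1A2, a collagen, and DCN, a matrix proteoglycan, were themselves markers of the stromal class, and AGTR1 is an angiotensin receptor. SHOX2 was most like DLK1 (0.90), KCNJ3 (0.88) and COL6A6 (0.88), where DLK1 is an imprinted membrane protein of fetal mesenchyme. LHX9 was most like UNC5C (0.95), a netrin receptor, GRIA3 (0.95), a glutamate receptor subunit, and LSAMP (0.94), a cell adhesion protein. NR2F2 was most like PHLDB2 (0.95), IGF2R (0.95) and CACHD1 (0.94), EMX2 like RYR2 (0.92), DGAT2 (0.91) and PRXL2B (0.89), and NR2F1 like SNX16 (0.81), CWF19L1 (0.80) and ACACA (0.79). Among the 7 themselves SHOX2 and LHX9 (0.87) were the most alike and NR2F1 and EMX2 (0.37) the least.

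Other transcription factors of the stroma shared the contrast with supporting cells. Of 32 listed stromal factors, 19 had enough UMIs in E85, and 12 were at least 2-fold higher in stroma than in Sertoli cells and 1 lower. In E105 17 of 21 were higher and 1 lower, and in E125 17 of 22 were higher than in pregranulosa cells and 2 lower. Over all symbols 34.9%, 35.6% and 18.4% were higher in E85, E105 and E125, and 10.3%, 10.4% and 13.5% were lower. The median log2 ratio of the list was 3.18, 4.04 and 1.66, beside 0.65, 0.67 and 0.17 over all symbols. TBX3, a T-box factor, had 214 CPM in stroma and 2.25 CPM in Sertoli cells of E85. HEY2, a Notch target, was lower in stroma in each library, at 0.32 (0.17 to 0.56), 0.43 (0.22 to 0.78) and 0.20 (0.17 to 0.24) times the supporting cells.

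Factors of the gonadal ridge were counted the same way, and their shares in E85 and E105 were not far from those over all symbols just given. Of 18 listed, 13, 12 and 12 were measured in E85, E105 and E125, and 6, 6 and 5 were at least 2-fold higher in stroma than in supporting cells and 0, 1 and 2 lower. Their median log2 ratio was 0.71, 1.45 and 0.81. MEIS1, a homeobox factor, was 64.4-fold higher in E85 stroma than in Sertoli cells (40.9 to 107), while WT1, the zinc finger factor of the ridge, was at 1.04 times (0.94 to 1.15). Of 10 listed paralogues of the 7 factors, 6, 4 and 7 were measured; 3, 3 and 2 were higher in stroma, and 4 were lower in E125, namely EMX1, LHX1, LHX2 and LHX8. The paralogues' median log2 ratio was 0.91, 5.68 and -1.52. LHX8 is also among the leading genes of the oocyte cluster. Between E105 and E85 stroma, 0 of 11 ridge factors and 0 of 3 paralogues passed 2-fold, where 7.61% of all symbols did, so nothing is read from these counts. The medians of these lists were -0.06 and 0.03 on the log2 scale, beside 0.07 over all symbols.

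Between E125 and E105 stroma, 7 of 23 stromal factors were at least 2-fold higher in E125 and 4 lower, and 3 of 13 ridge factors were higher and 2 lower. Over all symbols 17.9% were higher and 14.4% lower, which is near the shares of the ridge factors. WT1 had 358 CPM in E125 and 90.6 CPM in E105 (3.95-fold, 3.68 to 4.25), and GATA6, a zinc finger factor, had 33.8 and 3.19 CPM. GLI1, the readout of hedgehog signalling, had 1.91 CPM in E125 and 14.8 CPM in E105 (0.13, 0.085 to 0.19). MSC, a relative of TCF21, had 2 UMIs in E125 and 68 in E105. The paralogue OSR2 was at 0.50 times its E105 level (0.41 to 0.60). The medians were -0.10 for stromal and 0.67 for ridge factors, beside -0.07 over all symbols, and that of the 7 measured paralogues was 0.99.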

How the data were processed

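The deposited files hold counts of UMIs per feature and barcode for 3 libraries, made by the authors with Cell Ranger (version 3.1 per the submitters' processing notes, 6.0.0 per the file headers). Genome build and annotation: not given in the sources used here. Genes were taken by the files' symbols, which 16616 of the features carry. The barcode filter asked for 1000 UMIs and 500 genes or more, with no more than 20% mitochondrial UMIs (13 genes), and left 6328 of 7478 in E85, 7069 of 8520 in E105 and 7319 of 8346 in E125. Depth in the kept barcodes had a median of 5012, 3133 and 3320.0 UMIs, and it limits the share of cells in which a factor is found.

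The members, the marker and factor lists and the subset markers were chosen with earlier results of these data known. The class thresholds (at least 3 markers, lead of at least 1) were set after the files were seen, and the clusters described were chosen after their values were seen. Symbols absent from the files were dropped from the lists. Clusters used 3000 variable genes without the 7 factors, 30 principal components, 15 neighbours and Leiden at resolution 1 (scanpy 1.11.5, leidenalg 0.10.2) on all libraries without integration; of the 45 clusters those without enough markers stayed unnamed, among them the larger stromal cluster of E125. Doublets were scored with Scrublet and not removed; an alternative removes the top 6% of scores.

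Levels are summed UMIs per 1000000 UMIs of the class with exact Poisson intervals, shares carry exact Clopper-Pearson intervals after thinning each cell to 1000 UMIs (no kept cell was shallower), and ratios carry exact intervals from the binomial split of both sums, all at 95%. A count of 0 allows up to 3 counts. The log2 ratios used for counts past 2-fold add 0.5 UMI and need at least 20 UMIs over both sums. A gene can thus pass on the UMIs of 1 class alone. Named genes are all 7 factors, the 3 most alike symbols of each factor (at least 20 CPM in a class) and up to 4 members per factor list past 2-fold; WT1, OSR2 in the stroma, and the leading genes of clusters were added after their values were seen. Some members of the stromal factor list, and that list for E105 over E85, are not reported here. The steps were tested on simulated data with numpy 2.4.6 and scipy 1.17.1. Other gates, scalings and filters were tried (below).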

Additional observations from a re-analysis of the deposited data

Results flagged for a closer look

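Some factors moved opposite ways in 2 groups under the same contrast, with the counting interval of each group on its own side of 1. None of these differences was tested, since each stage is 1 library. The ratio of stroma to supporting cells for EMX2 was 0.359 in the library labelled E125, against 139 in E105 and 25.4 in E85. The E125 direction turned with the FST-led cluster alone as supporting cells. For E105 over E85, TCF21 was at 1.44 in stromal cells and 2.08 in Sertoli cells but at 0.521 in mural cells. The Sertoli levels are not told apart from free RNA. By the mural cluster TCF21 had 681 CPM in E105 (589 to 785) and 791 CPM in E85 (672 to 925), with overlapping intervals. SHOX2 was at 1.04 in stromal cells and 0.708 in Sertoli cells, but both directions turned with the processing: by named clusters the Sertoli log2 ratio was 0.30 in place of -0.49, and with median-of-ratios scaling the stromal one was -0.01 in place of 0.06. EMX2 was at 1.30 in stromal cells and 1.80 in germ cells but at 0.237 in Sertoli cells, where it rests on 10 UMIs in E105 and 57 in E85. Of these UMIs, 4 and 25 came from cells that clustered with germ cells. By named clusters the Sertoli levels of EMX2 were 0.96 CPM in E105 and 1.02 CPM in E85.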

How the results depend on the processing

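No paired analysis was possible because each stage is 1 library and all 3 carry the same replicate number. Depth limits NR2F1 and OSR1 most. Of 7 factors, 2 passed 2-fold for E105 over E85 in stroma. The count was 1 with clusters as classes, a stricter margin, at least 2000 UMIs, median-of-ratios scaling (a shift of 0.07 on the log2 scale), a minimum of 50 UMIs or the CCN3-led cluster alone, and 0 in the TAC1-led cluster alone. The count of factors at least 2-fold higher in E125 stroma than in supporting cells was 3, and it was 5 with the FST-led cluster alone. The log2 ratio of EMX2 there turned to 0.36; for the other settings it stayed between -1.52 and -1.25. The log2 ratio of SHOX2 in stroma over the 35 surface-gated cells of E125 turned to 3.91 with clusters, 2.80 with cluster 1 counted as stroma and 0.26 with the stricter margin. That of NR2F1 in stroma over mural cells of E105, on 2 mural UMIs, turned to 0.048 with the stricter margin. The cause was not tested. The settings that use 1 cluster alone, or count cluster 1 as stroma, were chosen after seeing the data. Of all levels set beside another setting, 115 moved beyond their counting interval and 214 did not. Removing the top 6% of doublet scores and counting each cell equally were run for levels only. Counts for E85 and E105 stroma over Sertoli cells were 5 and 7 under clusters, the stricter margin and the filter of 2000 UMIs. The shares of all symbols under these other settings are not reported here, so the counts show only how far the setting matters.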
